A study of Mus musculus with 34 samples.

Results

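The nuclear-encoded subunits of the mitochondrial respiratory chain and of the ATP synthase were followed in epididymal fat of mice kept on a high fat diet over several generations. A probe entered when its single annotated gene symbol was an Ndufa, Ndufb, Ndufc, Ndufs or Ndufv symbol with a number, one of Sdha to Sdhd, or began with Uqcr, Cox4 to Cox8 or Atp5. This gave 83 probes of 80 genes, out of 18617 genes with a symbol on the array: 33 of complex I, 4 of complex II, 8 of complex III, 18 of complex IV and 17 of the ATP synthase (complex V). Probes spelled in capitals for a human gene (9 in all) were left out, and the symbols cover no subunit encoded by mitochondrial DNA. Ndufa4 was counted with complex I by its symbol, although the protein is now regarded as a subunit of complex IV.

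Complexes I and II (NADH and succinate dehydrogenase) pass electrons through ubiquinone to complex III, cytochrome c and complex IV (cytochrome c oxidase), which reduces oxygen. Complexes I, III and IV pump protons across the inner mitochondrial membrane, and the ATP synthase uses the return of these protons to make ATP. In white fat cells the chain reoxidises electron carriers and supplies ATP, and some cytochrome c oxidase subunits exist as separate genes used in muscle and brown fat (Cox6a2, Cox7a1, Cox8b), in lung (Cox4i2) or in testis (Cox6b2, Cox7b2, Cox8c).

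The study hybridised pairs of groups on 34 arrays of 2 colours, each pairing in both dye orientations. STD mice ate a normal diet, HF0 were offspring of STD fed a high fat diet, HF1 were high fat offspring of HF0, HF3 of HF2 (a generation with no arrays here) and HF4 of HF3. The REV groups (HF1-REV, HF3-REV and HF4-REV) ate the normal diet and had the parents of HF1, HF3 and HF4, so that each pair asks what the diet of the last generation adds. Experiment 1 (12 arrays, RNA extracted with Trizol) held every pairing of STD, HF0, HF3 and HF4; experiment 2 (22 arrays, Qiagen) held every pairing of HF0, HF1, HF3 and HF4, HF0 with STD on 4 arrays, and each group with its REV counterpart on 2 arrays. The sources used here do not give the strain, the age or the number of animals behind an extract. The p-values therefore measure the spread between the 2 experiments. HF1 and the REV groups were measured in experiment 2 alone, and each is 1 value whose spread is assumed to be that of the other groups. All the values below are log ratios, taken as log2 (the base is not stated, and natural logarithms are possible), with each array's median set to 0. They are written for the first-named group over the second and are coded Cy5 over Cy3; if the deposited ratio ran the other way, every sign here turns together. Log ratios hold no levels, so the tissue label could not be checked by the level of fat cell markers.

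Several properties of the arrays bear on every value that follows. In experiment 1 the pairings did not add up: over all 22879 features the sum of HF3 against HF0 and HF0 against STD had a correlation of -0.02 across features with HF3 against STD measured directly, and of 0.05 across the 80 subunits. The other loops of experiment 1 gave 0.46 to 0.65 over all features, and the 4 loops of experiment 2 gave 0.69 to 0.82 (0.89 to 0.97 over the subunits). Cox7b2 is an example: through HF0 its HF3 against STD value in experiment 1 was 3.98, and measured directly it was -0.16. Arrays of experiment 1 with the same group name thus did not give the same relative values, and the group values of experiment 1 are averages over pairings that disagree. Whether different extracts or animals were used in different pairings, or whether the labels of some arrays of experiment 1 are wrong, is not known, so every group value of experiment 1, and every fitted difference that uses one, carries this doubt. In both experiments STD had higher values of epididymis transcripts than HF0, with a median difference over 7 markers of 2.23 in experiment 1 and 5.64 in experiment 2, and the STD extract of experiment 2 also had 3.66 more of 10 male germ cell transcripts.

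The subunits also carried a dye effect. In experiment 1 the ratio before turning had a subunit median above 0 on all 12 arrays, from 0.12 to 0.38, and 75 of the 80 subunits had a positive mean. After turning, the subunit median therefore had opposite signs in the 2 dye orientations of every pairing of experiment 1: HF0 against STD gave 0.20 and -0.21, HF3 against HF0 0.17 and -0.38, and HF4 against STD 0.33 and -0.26. In experiment 2 the median before turning ran from -0.46 to 0.68 and was below 0 on 7 of 22 arrays. The pairings were balanced for dye, so that the effect cancels in each pairing's mean, but a single array is not a measure of these genes.

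**Figure D1:**
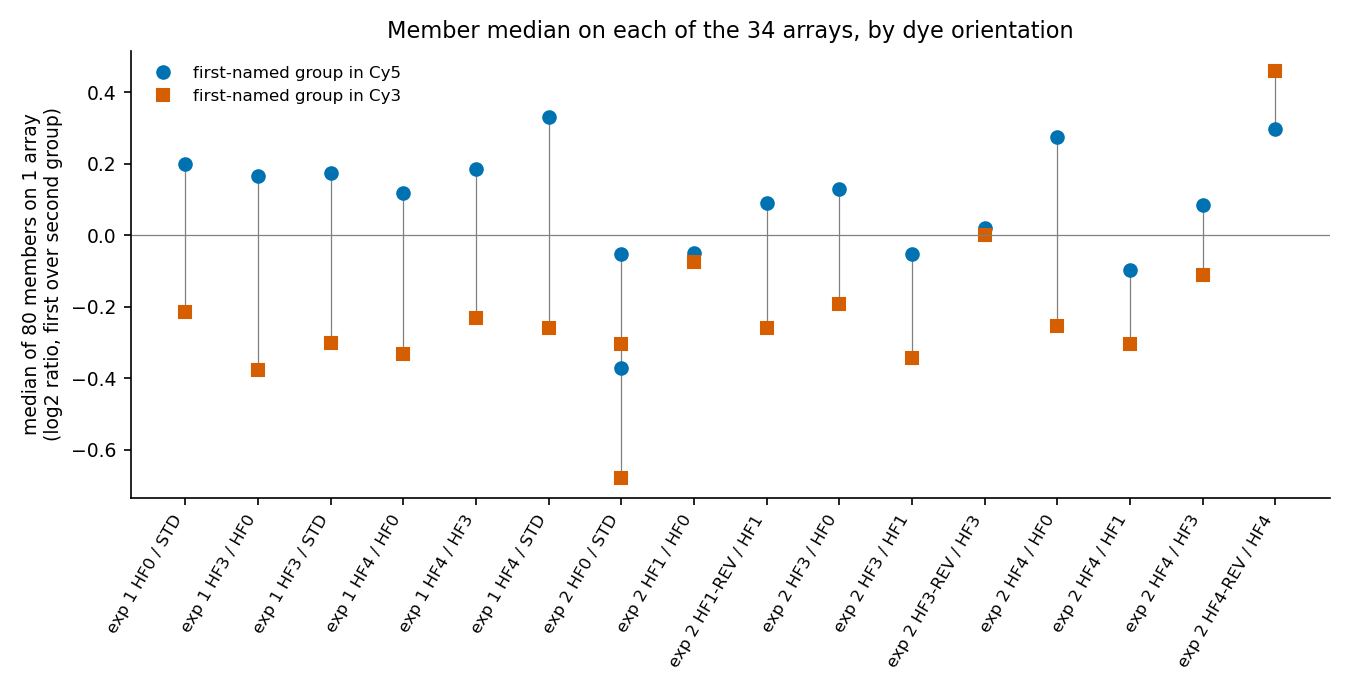
Median log2 ratio of the 80 subunits on each of the 34 arrays, by pairing (first-named over second-named group); blue circles are arrays with the first-named group in Cy5 and orange squares the swapped arrays. In experiment 1 all blue points lie above 0 and all orange points below it. In experiment 2 both arrays of HF4-REV over HF4 lie above 0 (0.30 and 0.46). HF0 over STD, HF1 over HF0, HF3 over HF1, HF4 over HF1 and HF3-REV over HF3 of experiment 2 also keep to 1 side of 0. HF3 over HF0, HF4 over HF0, HF4 over HF3 and HF1-REV over HF1 have both signs there.

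Against STD, the subunits of all 3 high fat groups had negative medians, and these came from experiment 2. HF0 against STD had a median of -0.16 over the 80 subunits, with 70 negative, against 0.0059 over all features. Within experiment 1 the subunit median was 0.040 and within experiment 2 it was -0.38. HF3 against STD gave -0.25 (-0.045 and -0.49 in the 2 experiments) and HF4 against STD -0.23 (-0.041 and -0.42). In experiment 2 STD was hybridised with HF0 alone, so HF3 and HF4 were linked to STD through those 4 arrays. The 3 medians of experiment 2 thus share the same STD measurement and are not separate results. No subunit passed an adjusted p of 0.05 in limma in any of these: 0 of 80 in HF0 and in HF3 against STD, where 0% of all features passed, and 0 of 80 in HF4 against STD, where 0.437% passed. At an unadjusted p of 0.05, 4 subunits passed in HF0 against STD (7.36% of all features), 6 in HF3 against STD (7.47%) and 16 in HF4 against STD (15%). Without the STD extract of experiment 2 the medians were 0.067, -0.050 and -0.033, and 2 subunits, Cox6b2 and Cox7b2, passed in HF4 against STD (Cox6b2 alone with scale normalization).

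On the 4 arrays of HF0 with STD in experiment 2 the subunit medians were -0.31, -0.68, -0.05 and -0.37. All 4 were negative, and their range did not reach the 0.20 of 1 of the 2 arrays of experiment 1. By complex, the fitted medians of HF0 against STD were -0.21 for complex I, -0.14 for complex II, -0.08 for complex III, -0.25 for complex IV and -0.13 for complex V. Of the 80 subunits, 2 (2.5%) were negative on all 6 arrays, beside 3.49% of all features. In the same comparison 11 of 11 fat cell markers were negative (median -0.60, and -0.67 within experiment 1), 9 of 9 macrophage markers were positive (median 0.58), and epididymis and germ cell markers had medians of -3.82 and -2.52. Their part in the subunit values was not tested, and in such bulk tissue fewer cells of a type and less RNA per cell cannot be told apart.

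The most positive subunits in HF0 against STD were Uqcrfs1, the Rieske iron-sulfur protein of complex III, and Cox6a2, the muscle form of Cox6a. Uqcrfs1 read -0.09 and -0.66 on the arrays of experiment 1 and 0.27, 0.25, 0.49 and 0.33 on those of experiment 2. Cox6a2 read -0.11 and -0.19, then 0.48, 0.28, 0.38 and 0.26. Both were negative throughout experiment 1 and positive throughout experiment 2, and neither passed (fitted differences 0.23 ± 0.13 and 0.18 ± 0.14, SE, limma adjusted p = 0.727 and 0.806). The most negative were the testis forms Cox7b2 and Cox8c. Cox7b2 read 0.15 and -0.15 in experiment 1 and -2.96, -3.004, -3.05 and -2.96 in experiment 2. Cox8c read 0.11 and -0.87 in experiment 1 and -3.23, -3.05, -3.35 and -0.64 in experiment 2. For Cox7b2 the experiments did not overlap at all, and its fitted difference of -1.97 ± 0.43 had a limma adjusted p of 0.632.

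**Figure D2:**
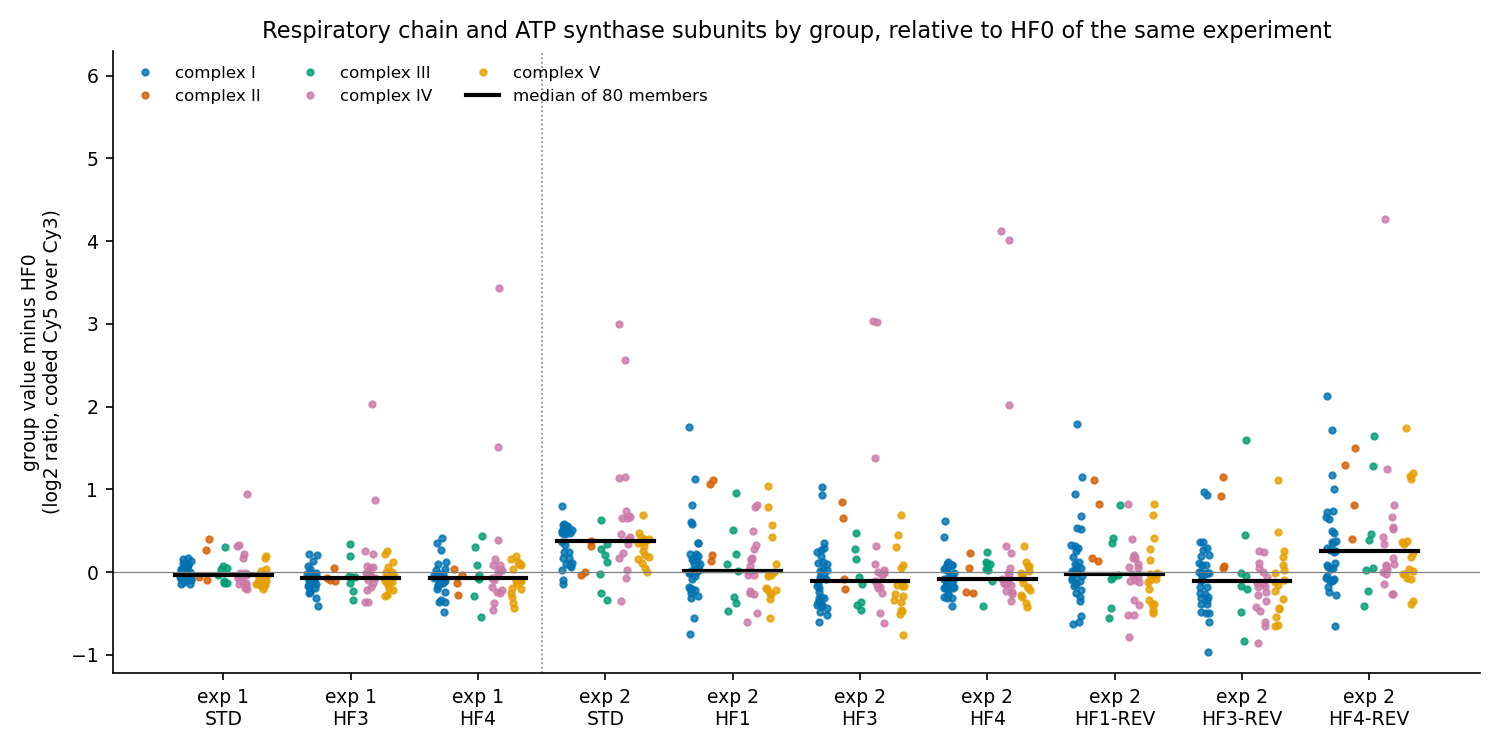
Fitted group value of each of the 80 subunits minus HF0 of the same experiment (log2 ratio), coloured by complex, with the median of the 80 as a black bar; the dotted line separates experiment 1 from experiment 2. Experiment 2 STD has the highest median (0.38), and the highest point in STD, HF3 and HF4 of both experiments is Cox7b2.

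In the comparisons fitted between generations on the high fat diet, the subunits as a group stayed near the median of all features. The subunit median was 0.0005 in HF1 against HF0 (all features -0.026), -0.079 in HF3 against HF0 (-0.0071), -0.085 in HF4 against HF0 (-0.032) and 0.0021 in HF4 against HF3 (0.0008). HF3 against HF0 gave -0.072 and -0.11 in the 2 experiments, and HF4 against HF0 gave -0.067 and -0.080. HF3 and HF4 against HF1 were not among the fitted comparisons, and their arrays in experiment 2 had negative subunit medians in both orientations. These were -0.05 and -0.34 in HF3 against HF1, and -0.10 and -0.30 in HF4 against HF1. With its arrays averaged, HF4 against HF1 had a subunit median of -0.22, against 0.0011 over all features. No subunit passed in HF1 against HF0, HF3 against HF0 or HF4 against HF3, where 0% of all features passed in limma; at an unadjusted p of 0.05 the counts were 12, 4 and 2 of 80 (7.18%, 7.8% and 5.5% of all features). In HF4 against HF0, 2 of 80 passed, both positive, beside 4.21% of all features (4.19% positive), and 5 of 80 passed an unadjusted p of 0.05 (10.9%). Both of these are testis forms of complex IV subunits.

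Cox7b2 is the testis form of Cox7b, a small subunit of cytochrome c oxidase. In HF4 against HF0 it read 2.54 and 2.33 on the arrays of experiment 1 and 4.46 and 3.89 on those of experiment 2. Cox6b2, the testis form of Cox6b, read 0.98 and 0.75, then 1.55 and 2.52. All 4 arrays were positive for both genes, and experiment 2 lay above experiment 1 for both. The fitted differences were 3.78 ± 0.43 for Cox7b2 and 1.77 ± 0.20 for Cox6b2 (SE, n = 2 experiments, limma adjusted p = 0.0105 and 0.0101). In the same comparison all 10 male germ cell markers passed, with a median of 4.62, and their part in the values of Cox7b2 and Cox6b2 was not tested. When both HF3 with HF0 arrays of experiment 1, which belong to the loop that closed least, were left out after these values had been seen, no feature passed in HF4 against HF0 and the adjusted p was 0.166 for Cox7b2 and 0.208 for Cox6b2.

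The general forms of these subunits did not move with them. Relative to HF0, Cox7b in HF4 was -0.09 in experiment 1 and -0.25 in experiment 2, where Cox7b2 was 3.44 and 4.12. Cox6b1 was -0.21 and -0.02, where Cox6b2 was 1.51 and 2.02. The 10 germ cell markers had medians of 4.38 and 4.88 in the same groups. Across the groups of experiment 2, Cox7b2 was high in STD (2.99), HF3 (3.03) and HF4 (4.12) and low in HF1 (-0.04), HF1-REV (-0.78), HF3-REV (0.25) and HF4-REV (0.04), and the germ cell median was high in the same 3 groups (3.66, 3.50 and 4.88, against -1.51 to 0.24 in the other 4). Cox6b2 had the same order of high and low groups, from 1.14 to 2.02 in STD, HF3 and HF4 and from -0.06 to 0.17 in the others.

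Cox8c, the testis form of the Cox8 subunit, departed from this pattern. In experiment 1 it was 0.22 in STD, 0.07 in HF3 and 0.09 in HF4, all near HF0, although Cox7b2 there ran from 0.94 to 3.44. The 0.94 is the Cox7b2 value in STD, fitted from pairings that disagree. The arrays holding HF0 with STD in experiment 1 read Cox7b2 with opposite signs. In experiment 2 Cox8c was 2.57 in STD, 3.03 in HF3 and 4.02 in HF4, and also 4.27 in HF4-REV, where Cox7b2 was 0.04. On the 2 arrays of HF4 with HF4-REV Cox8c read -1.88 and 1.38, opposite in the 2 dye orientations, so that its place in HF4-REV rests on arrays that disagree (fitted difference -1.06 ± 1.06, limma adjusted p = 0.54).

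**Figure D3:**
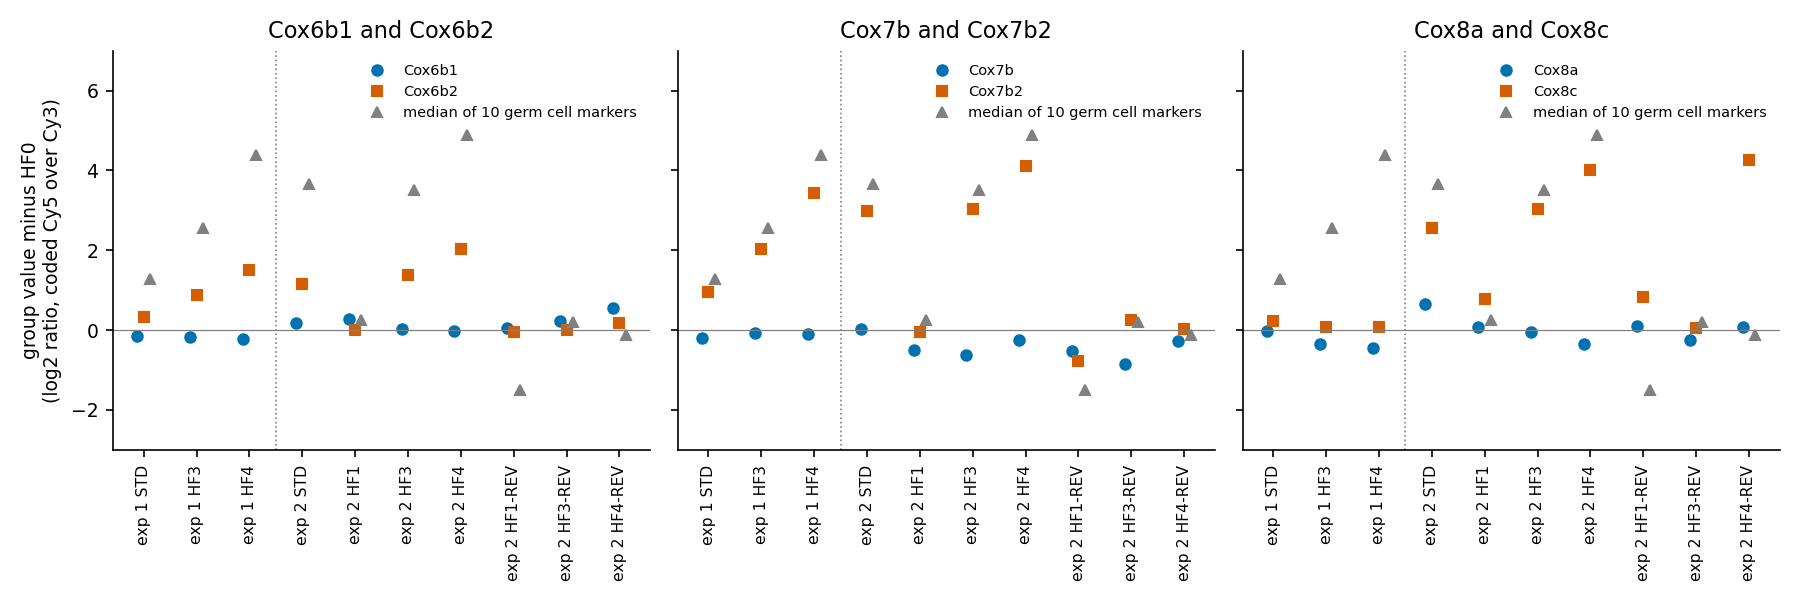
Group values minus HF0 of the same experiment (log2 ratio) for 3 pairs of cytochrome c oxidase genes, the general form as blue circles and the testis form as orange squares, with the median of 10 male germ cell markers as grey triangles. Cox6b2 and Cox7b2 are high where the germ cell median is high, Cox8c is near 0 in experiment 1 and at 4.27 in HF4-REV, and the general forms stay between -0.85 and 0.65.

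The other tissue forms showed smaller differences. Cox8b, used in muscle and brown fat, was 1.15 in STD, 0.81 in HF1 and 1.24 in HF4-REV relative to HF0 in experiment 2, and 0.32 in STD of experiment 1. It was negative on all 6 arrays of HF0 against STD, from -1.68 to -0.35, and was among the 2 most negative subunits in both HF3 and HF4 against STD (-0.81 ± 0.27 and -0.80 ± 0.27, limma adjusted p = 0.626 and 0.252). Cox4i2, Cox6a2 and Cox7a1 stayed between -0.35 and 0.42 in every group of both experiments. Of the general forms, Cox4i1 ran from -0.26 to 0.40, Cox6a1 from -0.37 to 0.81 and Cox7a2 from -0.65 to 0.66, and Cox8a, the general form of Cox8b, ran from -0.45 to 0.65.

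The upstream sequences of the pairs Cox6b1 and Cox6b2 and Cox7b and Cox7b2 are shown because the 2 genes of each pair code for alternative forms of 1 subunit and differed in these arrays. Each window holds the 250 bases before the annotated gene start, 5′ to 3′ on the gene's strand (RefSeq, GRCm38.p6). Capitals mark a match to a searched motif. In Cox6b1 it is the core bound by GABPA and other ETS factors, CCGGAAG, read on the opposite strand. In Cox7b2 it is TATAAA, also on the opposite strand.
Cox6b1, chr7:30626115-30626364, minus strand: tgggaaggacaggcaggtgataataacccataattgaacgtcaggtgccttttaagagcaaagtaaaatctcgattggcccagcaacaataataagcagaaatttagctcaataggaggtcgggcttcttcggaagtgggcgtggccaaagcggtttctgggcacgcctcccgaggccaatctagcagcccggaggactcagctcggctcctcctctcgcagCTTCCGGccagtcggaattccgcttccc
Cox6b2, chr7:4753095-4753344, minus strand: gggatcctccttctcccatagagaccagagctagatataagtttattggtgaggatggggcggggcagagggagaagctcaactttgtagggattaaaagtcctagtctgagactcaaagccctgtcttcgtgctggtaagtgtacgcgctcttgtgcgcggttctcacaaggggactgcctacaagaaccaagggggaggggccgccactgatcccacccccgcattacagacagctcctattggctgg
Cox7b, chrX:106015450-106015699, plus strand: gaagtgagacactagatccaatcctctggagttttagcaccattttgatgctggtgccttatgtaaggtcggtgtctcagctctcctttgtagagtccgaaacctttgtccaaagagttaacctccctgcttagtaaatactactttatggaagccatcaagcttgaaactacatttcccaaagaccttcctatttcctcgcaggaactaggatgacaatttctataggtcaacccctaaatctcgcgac
Cox7b2, chr5:71548206-71548455, minus strand: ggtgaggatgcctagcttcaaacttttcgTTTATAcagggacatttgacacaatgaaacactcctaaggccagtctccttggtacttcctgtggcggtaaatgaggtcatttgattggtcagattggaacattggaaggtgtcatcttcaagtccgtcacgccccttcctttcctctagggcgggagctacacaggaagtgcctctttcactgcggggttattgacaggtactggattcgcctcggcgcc

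The Cox6b1 match starts 28 bases before the gene start, and the Cox7b2 match 221 bases before it. None of the 6 searched motifs was found in the windows of Cox6b2 and Cox7b.

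HF4 against HF4-REV, which contrasts the high fat with the normal diet in the last generation, had the most subunits past the threshold. The subunit median was -0.20 (0.028 over all features), with 62 of 80 negative. In limma 16 of 80 subunits (20%) passed an adjusted p of 0.05, 14 negative and 2 positive, beside 11.2% of all features, and 31 passed an unadjusted p of 0.05 (31.4% of all features). By direction, the 14 negative subunits are 17.5% of the 80, beside 3.8% of all features, and the 2 positive ones 2.5%, beside 7.35%. Of the 80, 45 (56.2%) were negative on both arrays, beside 29.9% of all features. The count depended on the scaling: with quantile normalization 0 subunits (29 features) passed and with scale normalization 6, while the subunit medians were -0.17 and -0.16. Without both HF3 with HF0 arrays of experiment 1 it was 9, all negative, and without the STD extract of experiment 2 it was 30. The 6 with scale normalization were Atp5e, Atp5g1, Atp5h, Uqcrh, Cox6b2 and Cox7b2.

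Complex II, which also works in the citric acid cycle, had the lowest median, -1.14 over its 4 genes, and all 4 were negative on both arrays. Sdhb, its iron-sulfur subunit, read -0.75 and -1.77, and Sdhd, a membrane anchor, read -1.39 and -0.74. Both passed (-1.29 ± 0.27 and -0.99 ± 0.20, SE, limma adjusted p = 0.0356 and 0.0344). Sdhc, the other anchor, read -1.23 and -1.28 and had the most negative fitted value of the 4 (-1.32 ± 0.38, limma adjusted p = 0.0753). Sdha, the flavoprotein that holds the catalytic site, read -0.46 and -0.83.

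In complex I, 4 of 33 genes passed, all negative, and the median was -0.20. Ndufa4 read -2.28 and -1.89, the lowest of the 80 subunits (-2.03 ± 0.37, SE, limma adjusted p = 0.0266). Ndufs3, a core subunit of the arm in the matrix, read -1.38 and -1.95. Ndufb8, an accessory subunit of the membrane arm, read -0.88 and -1.23, and Ndufa13 (Grim-19), an accessory subunit, read -0.76 and -0.67. The 29 other genes of the complex were spread on both sides of 0, up to 0.62 for Ndufc1, so that the 4 did not stand for the whole complex. The 2 probes of Ndufa11 disagreed, at 0.64 and -1.36, and its average is not a reliable value.

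In complex III, 3 of 8 genes passed, all negative, with a median of -0.13. Uqcrh, the hinge protein that contacts cytochrome c1, read -1.48 and -1.75 (-1.57 ± 0.20, limma adjusted p = 0.0152). Uqcr11, a small subunit, read -1.35 and -0.97, and Uqcrfs1 read -0.61 and -0.99. The core proteins Uqcrc1 and Uqcrc2 had arrays on both sides of 0.

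In complex V, 4 of 17 genes passed, all negative, with a median of -0.19. Atp5g1, 1 of 3 genes for subunit c of the membrane ring, read -1.54 and -2.02 (-1.78 ± 0.31, limma adjusted p = 0.0245). Atp5e, the epsilon subunit of the central stalk, read -1.02 and -1.12. Atp5h and Atp5pb, subunits d and b of the peripheral stalk, read -1.15 and -1.03, and -1.15 and -1.13. The genes for the catalytic core, Atp5a1 and Atp5b, did not pass.

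In complex IV, 3 of 18 genes passed: Cox7b2 (4.23 and 3.94) and Cox6b2 (2.16 and 1.54) positive, and Cox7a1, the heart and muscle form of Cox7a, negative (-0.79 and -0.31). The median was -0.18. Cox7a1 lay at the threshold (-0.58 ± 0.14, limma adjusted p = 0.0498). Cox8b read -1.50 and -1.29 and Cox6a1 -0.79 and -0.88, and neither passed (limma adjusted p = 0.0643 and 0.0872). Cox4i1, the general form of Cox4, read -0.34 and 0.19.

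**Figure D4:**
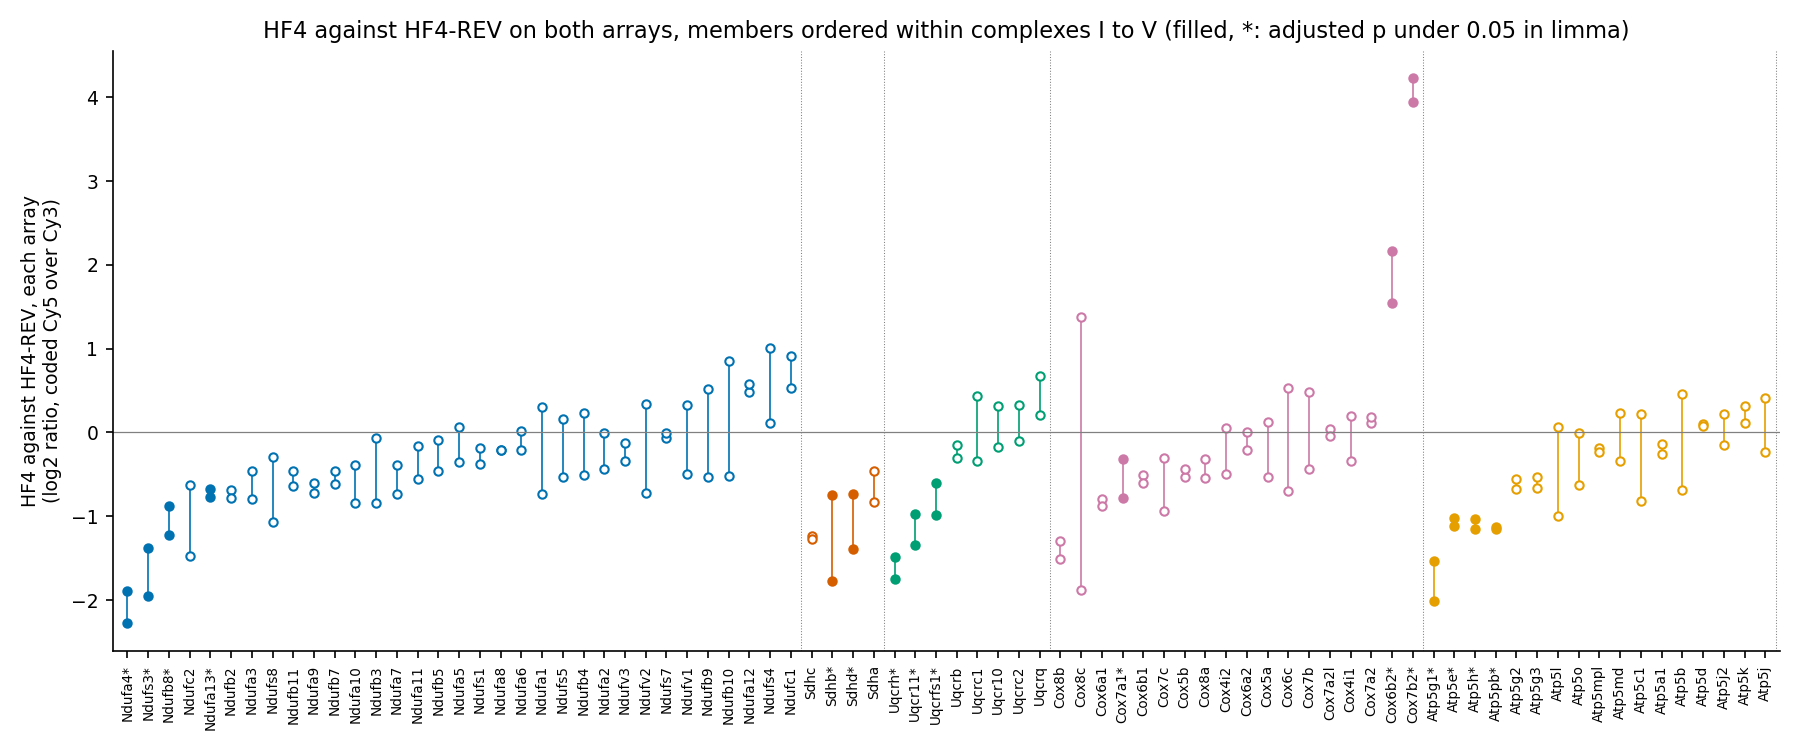
HF4 against HF4-REV on each of the 2 arrays (log2 ratio) for the 80 subunits, ordered within complexes I to V; filled points and an asterisk mark an adjusted p under 0.05 in limma. The 14 negative calls lie in all 5 complexes, and the 2 positive calls are Cox6b2 and Cox7b2.

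Other genes differed in the same comparison, in which 3.8% of all features passed negative and 7.35% positive. Of 76 cytosolic ribosomal proteins, taken by symbol prefix, 16 passed negative and 1, Rpl39l (3.06), passed positive (median -0.41). Of 77 mitochondrial ribosomal proteins 11 passed negative (median -0.30). As HF4-REV over HF4, the cytosolic ribosomal median was -0.12 on 1 array and 1.22 on the other, so its arrays disagree in sign. Before turning, this median was above 0 on all 22 arrays of experiment 2, from 0.10 to 1.22. All 3 red cell markers were negative (median -1.13), as were 10 of 11 fat cell markers (median -0.88), and all 10 germ cell markers were positive (median 5.34). The red cell marker Alas2 (-2.84) and the fat cell marker Retn (-1.49) passed (limma adjusted p = 0.00931 and 0.0124), as did all 10 germ cell markers. Of 9 macrophage markers 6 were negative (median -0.58) and 2 passed, Adgre1 (-1.04) and C1qb (-1.55), and of 6 endothelial markers 5 were negative (median -0.64) and none passed, the lowest being Kdr (-1.84, limma adjusted p = 0.0538). The part of these in the subunit values was not tested. Among 42 assembly factors, 4 passed negative, Ndufaf1 (-0.94) and Tmem70 (-0.91), which help build complexes I and V, with Coa5 (-0.91) and Sdhaf4 (-0.88), and Lyrm7, a complex III factor, passed positive (1.46). Of 19 electron carrier genes, Cyc1 (cytochrome c1, -0.93) and Coq7 (an enzyme of ubiquinone synthesis, -1.11) passed negative and Gpd2 positive (2.36). Cyc1 also belongs to complex III, but its symbol lies outside the rule used here. None of 17 citric acid cycle genes passed (median -0.08, from -1.29 for Dld to 0.44 for Pdhx). None of 16 regulators of mitochondrial biogenesis passed either: the lowest was Gabpa, an ETS factor, at -1.26 ± 0.35 (limma adjusted p = 0.0692), and the highest was Tfb1m at 0.61. Of 20 import genes Tomm22 passed (-1.39). Of 9 genes listed for ATP and phosphate transport, Ckmt1 passed (0.63), which is a mitochondrial creatine kinase and not a carrier.

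The same diet contrast in earlier generations gave smaller medians. In HF1 against HF1-REV the subunit median was 0.074 and 0 of 80 passed (0% of all features, limma), with 1 at an unadjusted p of 0.05 (3.59% of all features). That 1 was Ndufb9, a complex I accessory subunit, which read -2.11 and 0.24, opposite in the 2 orientations. In HF3 against HF3-REV the median was 0.066 in the fit and -0.010 on the group values of experiment 2, and 0 of 80 passed (0.0874% of all features), with 9 at an unadjusted p of 0.05 (15.4%). The most negative there was Uqcrc1, a core protein of complex III, which read -2.54 and -0.34 (-1.51 ± 0.16, limma adjusted p = 0.0523, and past the threshold with scale or quantile normalization or without the STD extract of experiment 2), and the most positive were Cox7b2 (2.74) and Cox8c (2.65). The difference of the diet contrast between generations was tested in the same fit, a test added after these values had been seen. No subunit and no other feature passed, for HF4 against HF1, HF4 against HF3 or HF3 against HF1 (0% each). At an unadjusted p of 0.05 the counts were 24, 22 and 4 of 80 subunits, beside 18.4%, 16.7% and 7.77% of all features. For Uqcrh the diet contrast in HF4 minus that in HF1 was -1.72 ± 0.30 (limma adjusted p = 0.102).

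The 14 subunits that were negative in HF4 against HF4-REV were followed through the other groups, as a description of genes chosen by that contrast. In experiment 2 their median relative to HF0 was 0.59 in HF1, 0.48 in HF1-REV, 0.33 in HF3, 0.16 in HF3-REV, 1.18 in HF4-REV and 0.042 in HF4. The 63 other subunits (without the 3 testis forms) had medians of -0.0065, -0.054, -0.16, -0.18, 0.081 and -0.10 in the same groups. Because the 14 were chosen for lying lower in HF4 than in HF4-REV, their high median in HF4-REV follows largely from the choice. The same holds for their gap to the other subunits in that group. In experiment 1 the 14 stood at -0.13 in HF3 and -0.14 in HF4, close to the -0.065 and -0.060 of the other subunits, so that the higher value in HF3 was seen in experiment 2 and not in experiment 1.

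Ndufa4 had the widest course: relative to HF0 in experiment 2 it was 1.76 in HF1, 1.79 in HF1-REV, 1.03 in HF3, 0.97 in HF3-REV, 2.13 in HF4-REV, 0.51 in STD and 0.047 in HF4. In experiment 1 it was 0.10 in STD, -0.25 in HF3 and -0.36 in HF4. Ndufs3 was 1.13 in HF1, 1.15 in HF1-REV, 0.93 in HF3, 0.94 in HF3-REV and 1.72 in HF4-REV, and Atp5g1 ran from 0.70 in HF3 to 1.74 in HF4-REV. As for Ndufa4, HF4-REV was the highest group for both and HF4 stood near HF0 (0.049 and -0.034). The choice of these genes by HF4 against HF4-REV favours that order. On the 2 arrays of HF1 with HF0, Ndufa4 read 1.76 and 1.36, Ndufs3 1.14 and 0.87, Sdhb 1.17 and 1.04, and Uqcrh 1.07 and 0.56. All were positive in both orientations, and none passed (limma adjusted p = 0.689 for each). The 3 red cell markers had medians of 1.26 in HF1, 1.21 in HF1-REV, 0.38 in HF3, 0.27 in HF3-REV, 1.13 in HF4-REV and -0.018 in HF4, and the 11 fat cell markers 0.82, 1.46, 0.10, 0.44, 1.05 and 0.11. Their part in the course of the 14 subunits was not tested.

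**Figure D5:**
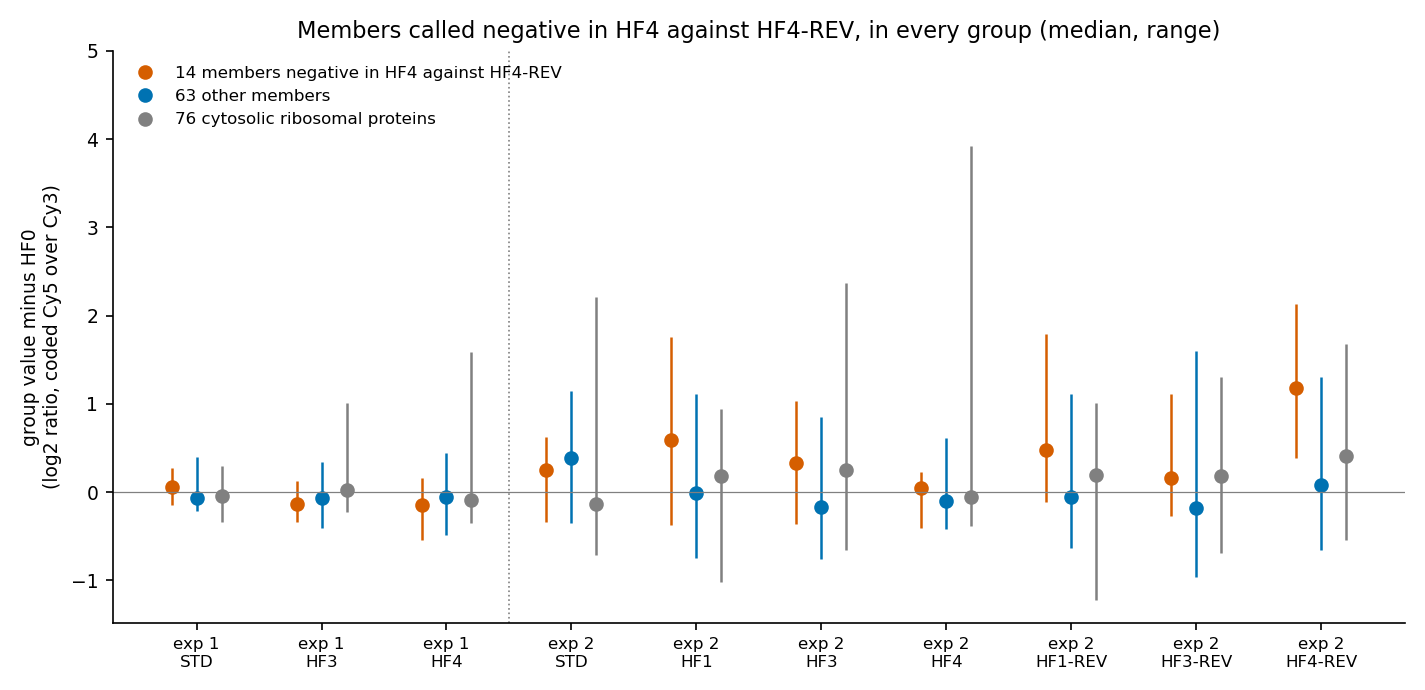
Median (point) and range (line) of group values minus HF0 of the same experiment (log2 ratio) for the 14 subunits negative in HF4 against HF4-REV (orange), the 63 other subunits without the testis forms (blue) and 76 cytosolic ribosomal proteins (grey). In experiment 2 the orange medians are 0.042 in HF4 and from 0.16 to 1.18 in HF1, HF3 and the REV groups, and in experiment 1 they run from -0.14 to 0.057.

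Since these 14 were negative together, their upstream windows were searched on both strands for 6 motifs chosen with the values known. The NRF1 and YY1 motifs were first searched 1 base longer and were then shortened. RefSeq windows were at hand for 66 of the 80 subunits and for 27025 genes in all, and the median GC content was 56.2% for the subunits and 52% for all genes. The ETS core CCGGAAG was in 10 of the 66 subunit windows (15.2%), beside 7.05% of all windows. It was in 6 of the 14 negative subunits (Atp5e, Atp5h, Ndufs3, Sdhd, Uqcr11 and Uqcrh) and in 4 of the 52 others. The NRF1 core GCGCATGCG was in 6 subunits (9.09% against 1.49%), none of them among the 14. The cAMP response element TGACGTCA was in 4 (6.06% against 1.62%), of which Uqcrfs1 is among the 14. The YY1 core AAGATGGCG was in none (0.607% of all windows), the ERRA half-site TCAAGGTCA in 1 (1.52% against 0.366%) and the TATA box TATAAA in 7 (10.6% against 13%), none of the latter among the 14. Such matches describe letters and not bound sites, and a set of 14 genes chosen from these values carries no test.

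The windows of Uqcrh and Ndufs3, with the motif in capitals, and of Ndufa4, the most negative subunit, without a match, are shown in the same way as those of the Cox genes.
Uqcrh, chr4:116075071-116075320, minus strand: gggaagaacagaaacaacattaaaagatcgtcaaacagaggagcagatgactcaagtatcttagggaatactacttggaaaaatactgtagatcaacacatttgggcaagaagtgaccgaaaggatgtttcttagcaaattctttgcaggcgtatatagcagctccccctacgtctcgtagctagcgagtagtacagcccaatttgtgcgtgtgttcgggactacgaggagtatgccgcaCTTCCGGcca
Ndufs3, chr2:90904722-90904971, minus strand: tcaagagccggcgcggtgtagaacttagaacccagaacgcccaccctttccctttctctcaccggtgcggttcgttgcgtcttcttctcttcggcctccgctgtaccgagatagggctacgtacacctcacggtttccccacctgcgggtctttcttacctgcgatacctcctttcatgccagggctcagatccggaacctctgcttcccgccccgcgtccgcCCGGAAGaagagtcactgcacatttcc
Ndufa4, chr6:11907451-11907700, minus strand: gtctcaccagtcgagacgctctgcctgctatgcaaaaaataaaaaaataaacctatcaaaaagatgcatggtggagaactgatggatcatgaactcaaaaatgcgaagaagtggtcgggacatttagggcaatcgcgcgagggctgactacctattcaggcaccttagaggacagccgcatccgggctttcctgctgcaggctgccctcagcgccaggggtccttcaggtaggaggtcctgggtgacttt

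The match starts 10 bases before the gene start in Uqcrh, on the opposite strand, and 27 bases before it in Ndufs3, on the gene's own strand.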

How the data were processed

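The authors deposited 1 normalized log ratio per probe and array (25344 probes, 34 arrays), taken here as log2; how they were normalized, which dye is the numerator and the log base were not stated in the labels or headers. No spot intensities were used, so background and depth are unknown; the number of arrays is 1 limit on precision. Probes were named from the platform annotation and updated through gene identifiers (RefSeq); 21082 had 1 symbol, 30 several and 4232 none. Each array was centred on its median, probes of a gene were averaged (22879 features), arrays were turned to 1 orientation and averaged within pairings, and group values were solved by least squares within each experiment. The 12 group values were fitted with limma 3.58.1 (R 4.3.3) with a term for experiment (3 residual degrees of freedom), with Benjamini-Hochberg adjustment over all features at 0.05. The fit was tested on simulated data with the fitted spread. Unlike the real arrays, the simulated ones had pairings that added up and no dye effect, so recovery in the real data may differ. It was read only for groups measured in both experiments, and not for HF1 or the REV groups. In HF4 against HF0 the fit recovered 36 of 100 changes of 1 and 92 of 100 changes of 2. In the real data the median SE of that comparison was 0.18 for the subunits and 0.15 for all features. A subunit that did not pass may therefore still have changed. Named genes were every subunit past the threshold, the tissue forms and complex II. Of the 2 most positive and 2 most negative subunits in each comparison, only some were named. The same holds for genes of the other lists past the threshold or at the extremes. Genes named beyond these were chosen after their values were seen. Members and lists were chosen with earlier results of these data known. Alternatives covered scaling, centring, probe averaging, the prior, left-out arrays and extracts, and each experiment alone.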

Additional observations from a re-analysis of the deposited data

Results flagged for a closer look

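Among 4 arrays of HF0 with STD in experiment 2, 1 array lay far from the other 3 for 2 of 40 values examined, while about 5% of such groups do so by chance. Cox8c read -0.64 on that array against -3.35 to -3.05 on the others. Cox6b2 read -1.90 on 1 array against -0.96 to -0.85 on the others.

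For 7 named subunits, every array of 1 experiment had one sign and every array of the other experiment the opposite sign in the same comparison; these differences between experiments were not tested. In HF0 against STD the array means of experiments 1 and 2 were -0.15 and 0.35 for Cox6a2, -0.38 and 0.33 for Uqcrfs1, and 0.13 and -0.47 for Ndufs7, a core subunit of complex I. In HF3 against HF0 they were -0.29 and 0.84 for Sdhc, -0.38 and 0.83 for Ndufa4, -0.32 and 0.72 for Atp5g1, and -0.30 and 0.41 for Uqcr11. The HF3 with HF0 arrays of experiment 1 belong to the loop that closed least.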

How the results depend on the processing

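No paired analysis was possible because the labels give the arrays no replicate numbers to use as a block; each array compares 2 groups directly, and experiment is a term in the fit. Subunits past the threshold changed by more than 1.5 times as follows. HF4 against HF4-REV (16) gave 0 with quantile normalization (29 features), 6 with scale normalization (1094), 9 without both HF3 with HF0 arrays of experiment 1 (1342; an alternative chosen after seeing the data, as was using only arrays that hold both groups) and 30 without the STD extract of experiment 2 (4884). HF4 against HF0 (2) gave 0 without those HF3 with HF0 arrays. Counts of 0 became 1 in HF4 against STD (Cox6b2) with scale normalization and with HF0 and STD of experiment 2 from the arrays of 1 date, and 2 (with Cox7b2) without the STD extract. In HF3 against HF0 the count became 2 (Cox6b2 and Cox7b2) without that extract; in HF3 against HF3-REV it became 3 without it and 1 (Uqcrc1) with scale normalization, with quantile normalization and with 1 date. The SD for medians was taken over the 2 experiments, or over the 2 arrays of a pairing where only experiment 2 held both groups. It ran from 0.0087 for HF4 against HF0 to 0.31 for HF3 against STD, so the limit is unequal between comparisons. HF0 against STD (SD 0.30) counts as unmoved although its median changed sign without the STD extract of experiment 2. Medians moved by more than 1 such SD in these cases. HF1 against HF0 (0.0005) was 0.053 without the STD extract, 0.019 in experiment 2 alone and -0.085 on its own arrays. HF3 against HF0 (-0.079) was -0.11 with quantile normalization, with no centring and in experiment 2 alone. HF4 against HF0 (-0.085) was -0.10 with quantile normalization and with no centring, -0.067 in experiment 1 alone and -0.056 on its own arrays. HF4 against HF3 (0.0021) was 0.044 in experiment 2 alone. HF3 against HF3-REV (0.066) was 0.021 without the STD extract, and -0.010 in experiment 2 alone and on its own arrays.

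Leaving out each array in turn gave medians from -0.22 to -0.10 for HF0 against STD, -0.33 to -0.20 for HF3 against STD, -0.31 to -0.13 for HF4 against STD, -0.050 to 0.045 for HF1 against HF0, -0.15 to -0.018 for HF3 against HF0, -0.15 to -0.025 for HF4 against HF0, -0.049 to 0.060 for HF4 against HF3, -0.090 to 0.26 for HF1 against HF1-REV, 0.028 to 0.11 for HF3 against HF3-REV and -0.42 to -0.19 for HF4 against HF4-REV. Counts ran from 12 to 25 for HF4 against HF4-REV (25 without replicate 1 of its own 2 arrays, which leaves the dye unbalanced) and from 0 to 4 for HF3 against HF3-REV: 4 without either of its own arrays, and 1 without replicate 1 of HF4 with HF0 in either experiment, or, in experiment 2, replicate 3 of HF0 with STD or replicate 2 of HF4 with HF1 or of HF4 with HF3. They ran from 0 to 1 for HF4 against STD (1 without replicate 2 of HF0 with STD in experiment 2) and for HF1 against HF1-REV (1 without replicate 2 of its own arrays), stayed at 2 for HF4 against HF0, and stayed at 0 in the 5 others. Replicates here are arrays numbered in accession order. No named subunit that passed changed sign under any alternative. Using annotated symbols gave the same 80 genes.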
